A study of Mus musculus with 247 samples.

Results

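The TREM receptor family was described in RAW264.7 cells, a mouse macrophage line from the BALB/c strain, with and without the corepressor subunit GPS2. The 7 genes were 6 receptors (Trem1, Trem2, Trem3, Treml1, Treml2 and Treml4) and Tyrobp, which encodes DAP12, the signalling adaptor of some of them. They were taken by name from 14378 genes in the RNA table, and by the nearest gene given by the authors from the site tables. The sites numbered 20 of 73206 in open chromatin, 18 of 52093 for PU.1, 20 of 58888 for JunB, 8 of 26718 for MED1 and 5 of 23360 for RNA polymerase II. The family was selected on its RNA values, which were higher in knockout cells for several members. The difference in RNA between knockout and WT cells is therefore given as a description, with no test.

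RNA was measured in 4 groups of 4 libraries: untreated WT, WT with LPS, untreated GPS2 knockout (KO, made with CRISPR) and KO with LPS. LPS, the bacterial lipopolysaccharide sensed by Toll-like receptor 4, was given at 10 ng/ml for 6 h before RNA was taken. Chromatin immunoprecipitation (ChIP) of PU.1 and JunB covered WT and KO cells, each untreated or after 2 h of LPS, in 2 libraries per group. ChIP of MED1 and RNA polymerase II is available here for WT and KO cells with LPS alone, again in 2 libraries per group; the LPS dose of the ChIP cells is not given in the labels. ATAC-seq, which reads open chromatin by transposase cutting, compared 3 control with 3 KO libraries, all untreated and from wells seeded in parallel. No label names separate KO clones or separate cultures, so p-values measure the spread between these libraries, which may be technical.

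TREM receptors are immunoglobulin-domain proteins of the surface of myeloid cells. Those with a charged residue in the membrane pair with DAP12, whose ITAM motif recruits the kinase SYK. Trem1 amplifies inflammatory signals from Toll-like receptors, whereas Trem2 binds lipids and lipoproteins and is best known for its role in microglia and other phagocytic macrophages. Trem3 is a DAP12-coupled receptor of mouse myeloid cells, and Treml4 takes part in sensing dead cells and nucleic acids. Treml1 is known from platelets and megakaryocytes and carries an inhibitory motif, and Treml2 is found on myeloid and B cells. GPS2 is a subunit of the NCoR and SMRT corepressor complexes, PU.1 is the ETS factor that sets macrophage enhancers, JunB is a subunit of AP-1, and MED1 is a subunit of Mediator.

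The 6 receptor genes lie in a row on 1 strand over 134.6 kb of chromosome 17, from Trem1 at chr17:48371903-48386091 to the end of Treml1 at 48506501 (mm9). Their order is Trem1, Trem3, Treml4, Treml2, Trem2 and Treml1. Tyrobp lies apart, on chromosome 7. Sites below are named by the distance in bases from the site's centre to the gene's start, negative upstream, as in the authors' annotation.

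The reference sequence of 6 sites is shown as examples, each with a motif match. They are JunB and PU.1 sites next to Trem1, Trem3, Treml4 and Treml2, whose occupancy was higher in KO cells with LPS, and a site of Treml1 for comparison. Other sites with higher occupancy in KO cells, not shown, hold no match (below). Sequences are from mm9, plus strand, 5′ to 3′, with exons left out. Capitals mark the AP-1 motif TGANTCA or the PU.1 core motif GGAAGT, whose reverse complement is ACTTCC.
Trem1 intron, JunB site at 2032, chr17:48373836-48374035: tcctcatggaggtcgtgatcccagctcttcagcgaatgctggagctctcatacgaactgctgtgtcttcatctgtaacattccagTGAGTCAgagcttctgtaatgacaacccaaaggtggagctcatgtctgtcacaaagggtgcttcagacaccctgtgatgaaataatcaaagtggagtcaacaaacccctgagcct
Trem1 promoter, PU.1 site at -66, chr17:48371676-48371902: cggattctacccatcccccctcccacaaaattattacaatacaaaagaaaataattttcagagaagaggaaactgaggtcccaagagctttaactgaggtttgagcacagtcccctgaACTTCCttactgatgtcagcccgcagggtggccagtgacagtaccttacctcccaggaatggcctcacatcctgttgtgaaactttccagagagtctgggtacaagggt
Trem3 promoter, JunB site at -605, chr17:48386167-48386416: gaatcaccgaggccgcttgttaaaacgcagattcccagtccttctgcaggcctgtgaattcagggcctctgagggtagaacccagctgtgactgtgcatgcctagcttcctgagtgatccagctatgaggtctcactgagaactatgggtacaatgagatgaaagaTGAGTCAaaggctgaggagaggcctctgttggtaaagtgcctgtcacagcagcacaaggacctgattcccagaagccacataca
Treml4 promoter, PU.1 site at -564, chr17:48402963-48403232: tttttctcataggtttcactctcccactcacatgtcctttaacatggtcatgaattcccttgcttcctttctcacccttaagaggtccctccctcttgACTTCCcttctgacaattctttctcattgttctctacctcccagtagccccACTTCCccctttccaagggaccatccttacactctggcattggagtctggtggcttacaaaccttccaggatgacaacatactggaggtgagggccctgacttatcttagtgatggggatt
Treml2 intron, PU.1 site at 1038, chr17:48440251-48440550: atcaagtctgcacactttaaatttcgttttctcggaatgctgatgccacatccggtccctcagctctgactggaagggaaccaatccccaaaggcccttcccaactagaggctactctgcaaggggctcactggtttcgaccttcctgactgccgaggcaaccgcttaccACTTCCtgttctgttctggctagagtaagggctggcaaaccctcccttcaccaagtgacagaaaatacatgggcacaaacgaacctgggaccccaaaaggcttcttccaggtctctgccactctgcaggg
Treml1 upstream, JunB site at -3874, chr17:48495217-48495516: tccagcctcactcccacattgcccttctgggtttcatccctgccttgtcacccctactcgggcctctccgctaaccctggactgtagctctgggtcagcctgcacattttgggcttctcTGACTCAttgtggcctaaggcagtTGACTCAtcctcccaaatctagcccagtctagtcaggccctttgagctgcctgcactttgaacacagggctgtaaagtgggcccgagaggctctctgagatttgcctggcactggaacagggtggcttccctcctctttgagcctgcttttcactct

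The intronic Trem1 site and the Trem3 promoter site each hold 1 AP-1 match and no PU.1 core match. The Treml4 promoter site holds 2 PU.1 core matches, and the Treml1 JunB site holds 2 AP-1 matches. In windows of 200 bases on the site centres, counting both strands, the AP-1 motif was present in 9 of the 20 JunB sites of the family (45%) and in 52.4% of all JunB sites. The PU.1 core was present in 10 of 18 PU.1 sites (55.6%) and in 63.8% of all PU.1 sites. The longer form GAGGAAGT, which contains the core, was present in 3 of 18 (16.7%) and in 25.1% of all PU.1 sites. No AP-1 or PU.1 core match lay in the windows of the PU.1 sites at Trem3 -34 and Trem1 -1847. The same held for the JunB sites at Trem1 -1815 and Treml4 14256. These sites were also higher in KO cells with LPS. A match is a description of the sequence, not evidence of binding.

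RNA libraries held 12094940 to 22968591 mapped reads, and ChIP libraries 8096466 to 16006472. Gps2 itself was lower in KO than in WT cells in both conditions, with 132 against 434 normalised reads (defined below) untreated and 90.3 against 440 with LPS. Replicate 4 of the WT LPS group stood apart from its 3 partners: reads per gene differed with a chi-square per gene of 98.6 to 137.7, against 1.24 to 9.51 for the other pairs of RNA libraries. The main values and calls of the 7 genes that rest on it are given with and without it. The libraries of each ChIP group differed by about as much as sampling alone gives (chi-square per site 0.823 to 1.16, where sampling alone gives about 1). The most was for JunB in untreated KO cells (1.16) and RNA polymerase II in WT cells (1.103). Both libraries of a group entered the fits as separate replicates, although they may be copies of 1 sample. ChIP p-values therefore compare libraries rather than conditions, and both values are printed in place of an SD. Summed RNA of 8 macrophage markers was 78269 to 121400 normalised reads in all 16 libraries, with all 8 detected in every group.

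The level of each gene is given as normalised reads, that is, reads per 10000000 mapped reads with the library size scaled by the trimmed mean of M values (TMM). In untreated WT cells the adaptor and Trem2 dominated the family. Per kb of transcript, Tyrobp had 6772 ± 193 and Trem2 1272 ± 41.1 normalised reads (SD, n = 4), followed by Treml1 with 8.81 ± 1.56 and Trem3 with 5.43 ± 1.28. Treml4 (0.139 ± 0.163), Treml2 (0.0547 ± 0.109) and Trem1 (0.0408 ± 0.0816) rested on 1 or 2 reads over the whole group, and their order cannot be told. In KO cells with LPS the order per kb became Tyrobp (6471 ± 98.1), Trem2 (855 ± 17.9), Trem3 (115 ± 4.86), Trem1 (53.2 ± 4.27), Treml2 (48.7 ± 3.04), Treml4 (5.47 ± 1.13) and Treml1 (0.288 ± 0.333). Trem1 and Treml2 did not differ there beyond the spread of their libraries, which overlapped.

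**Figure D1:**
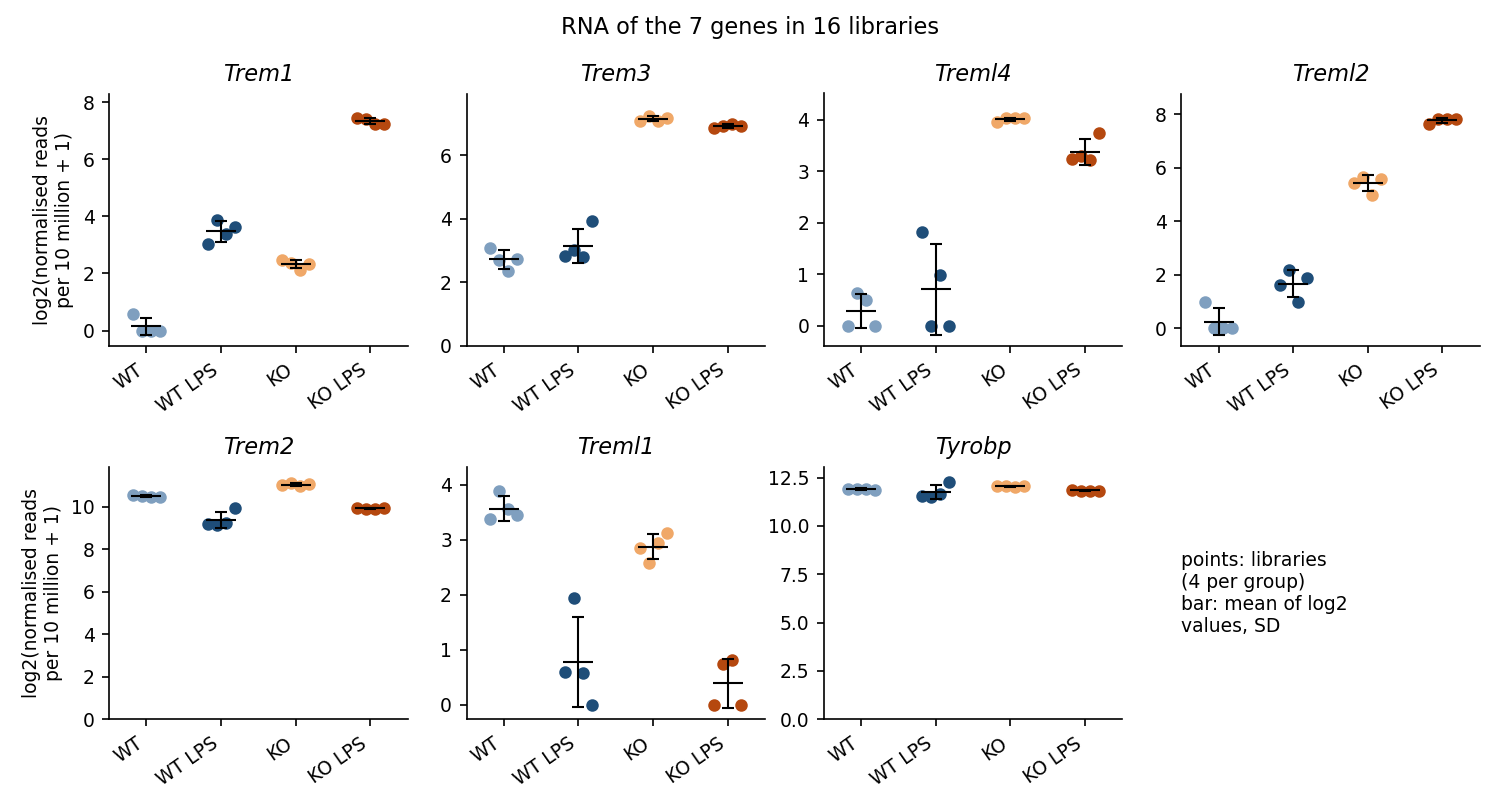
RNA of the 7 genes. The y axis is log2 of normalised reads plus 1, with a separate range in each panel; points are libraries, and the bar and whiskers are the mean and SD of the log2 values of 4 libraries. Trem1, Trem3, Treml4 and Treml2 lie higher in KO than in WT cells in both conditions without overlap, while Trem2 and Treml1 lie lower with LPS than without it in both genotypes.

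Trem1, the amplifier of Toll-like receptor signals, was almost silent in untreated WT cells. Its 4 libraries had 0.492, 0, 0 and 0 normalised reads there, and 4.49, 4.14, 3.36 and 4.08 in untreated KO cells. With LPS it had 7.11, 13.5, 9.41 and 11.4 in WT, against 174, 169, 150 and 149 in KO cells. Each of the 4 groups was separate from the others, with KO above WT and LPS above untreated. From 33 reads in KO and 1 in WT cells the untreated ratio was 34.4 (95% interval of counting error 5.75 to 1398), and with LPS the KO mean was 15.5 times the WT mean.

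Trem3 was also higher in KO cells, with a smaller difference between untreated and LPS libraries. Its untreated WT libraries had 7.38, 5.49, 4.15 and 5.62 normalised reads and the KO libraries 134, 152, 135 and 145. With LPS, the WT values were 6.09, 7.12, 5.94 and 14.1, the last from the library that stands apart, and the KO values were 114, 119, 126 and 120. The lowest KO library lay above the highest WT library in both conditions. The ratio of KO to WT means was 25 untreated and 14.4 with LPS, or 18.8 without WT LPS replicate 4.

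Treml2 and Treml4 were close to undetected in WT cells. Treml2 had 0.985, 0, 0 and 0 normalised reads untreated and 2.03, 3.56, 0.990 and 2.64 with LPS in WT cells, against 42.1, 49.7, 30.7 and 46.4 untreated and 199, 228, 226 and 224 with LPS in KO cells. Treml4 had 0, 0.549, 0.415 and 0 untreated and 2.54, 0, 0.990 and 0 with LPS in WT cells, against 14.6, 15.3, 15.4 and 15.3 untreated and 8.47, 8.82, 8.27 and 12.4 with LPS in KO cells. Neither gene's KO libraries overlapped its WT libraries. The untreated ratio of KO to WT was 182 for Treml2 (350 against 2 reads, interval 50.1 to 1510) and 65.1 for Treml4 (125 against 2 reads, interval 17.6 to 543). With LPS, Treml2 had a ratio of means of 95.1 and Treml4 a ratio of 8.67 from 50 against 7 reads (interval 3.91 to 22.7). Without WT LPS replicate 4 the ratio of means was 99.8 for Treml2. For Treml4 it was 8.07 without and 10.8 with that library.

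Trem2, the lipid-binding receptor, and the adaptor Tyrobp were abundant in every library and differed less between genotypes. Untreated Trem2 had 1512, 1447, 1435 and 1401 normalised reads in WT and 2066, 2202, 2028 and 2177 in KO cells, a ratio of means of 1.46. With LPS it had 589, 568, 609 and 975 in WT, against 998.6, 966, 951 and 979 in KO cells; the groups overlapped only through WT replicate 4, and the log2 difference was 0.54 with that library and 0.73 without it. Tyrobp had 3919, 3904, 3797 and 3685 in untreated WT and 4222, 4340, 4174 and 4252 in untreated KO cells, which did not overlap, at a ratio of means of 1.11. With LPS, Tyrobp had 3027, 2887, 3238 and 4933 in WT, against 3739, 3620, 3638 and 3629 in KO cells, so that WT replicate 4 alone lay above the KO libraries.

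Treml1, the receptor with an inhibitory motif, was the member with lower values in KO cells. Untreated WT libraries had 9.35, 13.7, 10.8 and 9.94 normalised reads and KO libraries 6.17, 4.97, 6.72 and 7.65, a ratio of means of 0.583. With LPS, both genotypes were near 0, with 0.508, 2.85, 0.495 and 0 in WT, against 0, 0.679, 0.752 and 0 in KO cells, from 6 and 2 reads. The LPS groups overlapped, and without WT replicate 2 the log2 difference went from -0.39 to 0.00041. Without WT replicate 4 it was -0.66.

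In untreated cells the 7 genes thus had groups without overlap, 6 higher and Treml1 lower in KO cells, in a comparison where 35.5% of all 11791 tested genes were called at an adjusted p under 0.05 (58.9% without WT LPS replicate 4). With LPS, Trem1, Trem3, Treml2 and Treml4 did not overlap, all higher in KO cells, and 44.1% of all tested genes were called (57.7% without WT LPS replicate 4). The choice of members rests on these values, so nothing is read from the counts. Called genes are another measure than groups without overlap. The share of all genes without overlap was not counted, here or for the LPS contrasts below. The difference had a median of 2.18 on the log2 scale untreated and 2.67 with LPS over the 7 genes, beside 0.0084 and 0.0010 over all tested genes. With library totals in place of TMM, the calls over all genes untreated were 1561 higher and 2802 lower, against 2122 and 2058; no member changed sign.

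The contrast of LPS with untreated cells was not the one that chose the members, although it uses the same libraries as the contrast between genotypes that did. Of the 7 genes, Trem2, Trem3 and Tyrobp reached the read minimum of the filter in at least 1 library of every group and were tested with limma. Trem1 entered the fit only through LPS groups, Treml1 only through untreated groups, and Treml2 and Treml4 only through KO groups, so their changes are given as values with no test. Of all genes, 70.4% were called in WT cells, 34.2% higher and 36.2% lower, so a call by itself was the common outcome.

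In WT cells Trem1 had 65 reads with LPS against 1 untreated, a ratio of 85.4 (counting interval 14.8 to 3423), and a log2 change of 3.33. Treml2 had 14 against 2 reads (ratio 9.19, interval 2.11 to 83.4) and a log2 change of 1.41. Treml1 had 6 against 93 reads, 11.8-fold fewer (interval 5.22 to 33.0), and a log2 change of -2.79. For these 3 genes the LPS libraries did not overlap the untreated ones, while Treml4 overlapped, with 7 against 2 reads and a log2 change of 0.42. Without WT LPS replicate 4 the log2 changes were 3.29 for Trem1, 1.36 for Treml2, -2.53 for Treml1 and 0.66 for Treml4. The log2 values are on the scale of log2(value + 1), which understates changes of such low genes.

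Trem2 fell with LPS in WT cells by 1.12 on the log2 scale (SE 0.12, adjusted p = 7.47e-07), and the mean went from 1449 ± 46.8 to 685 ± 194 normalised reads (SD, n = 4), or 589 without WT LPS replicate 4. Tyrobp, the adaptor gene, had a log2 change of -0.15 (SE 0.12, adjusted p = 0.256). Without WT LPS replicate 4 it passed the test at -0.33 (adjusted p = 1.90e-08), in a fit where 79.9% of all genes were called. With library totals it was -0.62 (adjusted p = 3.62e-05). Trem3 had a log2 change of 0.43 (adjusted p = 0.0774), or 0.17 without WT LPS replicate 4. It passed without untreated WT replicate 1 (0.54), WT LPS replicate 1 (0.52) or WT LPS replicate 3 (0.53).

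In KO cells Trem2 fell with LPS by 1.12 (SE 0.12, adjusted p = 8.01e-07), where 67.6% of all genes were called, 31.5% higher and 36.1% lower. Trem3 had a log2 change of -0.24 (adjusted p = 0.327) and Tyrobp of -0.22 (adjusted p = 0.119), although for both genes all LPS libraries lay below all untreated ones. Tyrobp passed without WT LPS replicate 4, at -0.20 (adjusted p = 1.21e-05), in a fit where 81% of all genes were called. With library totals Trem2 (-1.51), Trem3 (-0.62, adjusted p = 0.00828) and Tyrobp (-0.61, adjusted p = 5.07e-05) all passed as lower; the scaling moved the median of all genes by -0.43 in KO and -0.48 in WT cells. Of the genes without a test, Trem1 had a mean 39.9 times and Treml2 5.19 times that of untreated KO cells, and Treml1 had 2 against 52 reads, 16.99-fold fewer (counting interval 4.47 to 144). Treml4 had a log2 change of -0.64, with the LPS libraries below the untreated ones. Whether a response differed between WT and KO cells was not tested.

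**Figure D2:**
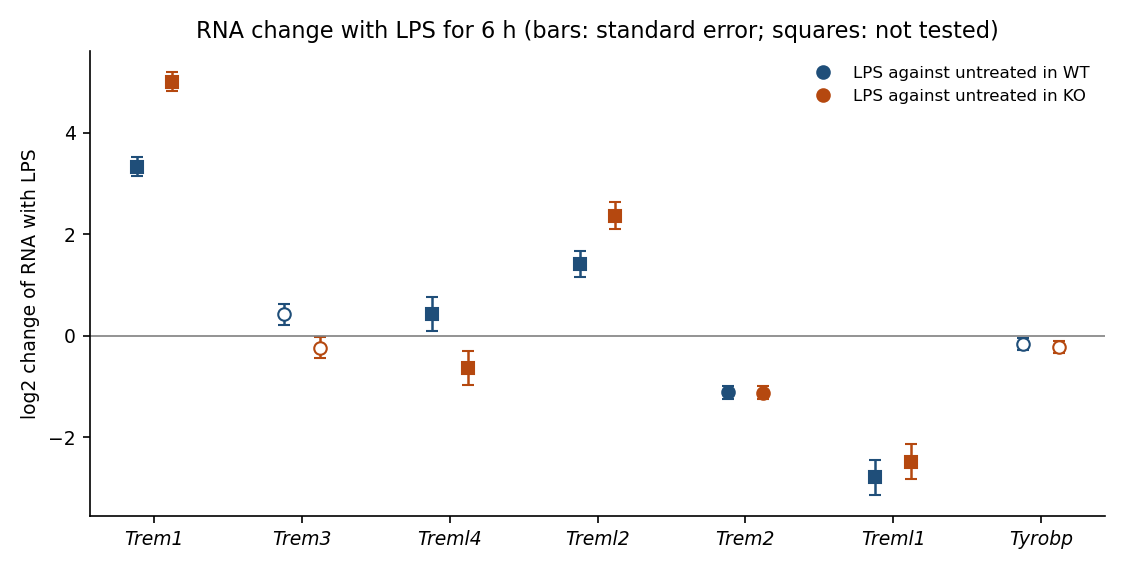
Change of RNA with LPS for 6 h. The y axis is the log2 change in normalised reads plus 1, in WT (blue) and KO (orange) cells; bars are standard errors of the fit, filled circles passed an adjusted p of 0.05, open circles did not, and squares were not tested. Trem1 (3.33 and 5.01) and Treml2 lie above 0, Trem2 (-1.12 and -1.12) and Treml1 below 0, and Trem3, Treml4 and Tyrobp between -0.64 and 0.43.

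Other genes of the DAP12 pathway moved in both directions. Of 22 genes of DAP12 signalling, 7 rose and 5 fell in untreated KO cells against WT (18% of all genes rose and 17.5% fell), at a median log2 change of 0.15 beside 0.0084 over all genes; without WT LPS replicate 4, 10 rose and 8 fell. Syk, the kinase that binds the DAP12 motif, rose by 0.95 (adjusted p = 8.05e-06), from 522 ± 39.8 to 1006 ± 19 normalised reads, and Lat2, a membrane adaptor of the same route, rose by 0.78 (adjusted p = 1.21e-04). With LPS, 9 were higher and 7 lower in KO cells (22.1% of all genes each way), among the latter the Src-family kinase Fgr by -1.03. In WT cells LPS raised 12 and lowered 7 (34.2% and 36.2% of all genes), and in KO cells it raised 14 and lowered 3 (31.5% and 36.1%).

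Of 11 tested genes for other receptors that couple to DAP12, 4 rose and 3 fell in untreated KO cells (18% and 17.5% of all genes), and with LPS 5 were higher in KO cells and 0 lower (22.1% of all genes each way; 5 and 2 without WT LPS replicate 4). Cd200r4, an activating member of the CD200 receptor family, had 3.25 ± 1.44 normalised reads in untreated WT and 161 ± 8.66 in untreated KO cells. Its log2 change of 5.31 is given with no p-value, because the WT reads were few. The counts of this list may include such genes, so nothing is read from them. Pilrb1 and Pilrb2, paired activating receptors with near-identical copies that counting could split, were higher by 4.22 and 4.49 with LPS. Cd300ld fell by 1.498 untreated (adjusted p = 0.00247). Csf1r, the receptor of macrophage colony-stimulating factor, fell with LPS in WT cells by 1.97 (adjusted p = 1.33e-10).

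Among 8 tested TREM ligands and shedding proteases, 2 rose and 2 fell in untreated KO cells (18% and 17.5% of all genes; 3 and 3 without WT LPS replicate 4), at a median of -0.03. The 2 with the greatest change are named. Clu, the lipoprotein component clusterin that TREM2 binds, had 0.458 ± 0.404 normalised reads in WT and 33.6 ± 5.00 in KO cells. Its log2 change was 4.60. S100a8, a secreted calcium-binding protein, had a log2 change of 2.11 from a mean of 0.260. Because their WT reads were near 0, both are given as values with no p-value. The counts of this list include such genes, so nothing is read from them. With LPS, 3 were higher and 3 lower in KO cells (22.1% of all genes each way); without WT LPS replicate 2, or without KO LPS replicate 1, 3 were called in all. LPS raised 5 and lowered 1 in each genotype (34.2% and 36.2% of all genes in WT, 31.5% and 36.1% in KO cells). Of 18 genes that depend on TREM2 in microglia, 12 rose and 3 fell in untreated KO cells (18% and 17.5% of all genes), at a median log2 change of 0.78 beside 0.0084 over all genes; without WT LPS replicate 4, 14 rose and 3 fell. Of the 2 with the greatest change, Gpnmb, a lysosomal glycoprotein, rose by 4.20 (adjusted p = 3.65e-14), from 2129 ± 71.1 to 39169 ± 846, and Cst7, a cysteine protease inhibitor, by 2.48. With LPS, 9 were higher and 3 lower in KO cells (22.1% of all genes each way).

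Markers of other cell types were read beside these values. Summed RNA of the granulocyte markers was 14.8 to 18.6 normalised reads in untreated WT and 92.9 to 106 in untreated KO cells, and 33.5 to 42.2 and 64.7 to 78.1 with LPS. Only 3 of the 8 granulocyte markers were analysed here: Csf3r, which rose by 2.44 in untreated KO cells, S100a8, and Camp, which had no read in that group; Ly6g, Ngp, S100a9, Mpo and Elane were not analysed here. Platelet markers, 3 of 6, summed to 40.6 to 47.8 in untreated WT and 23 to 27.7 in untreated KO cells. Osteoclast markers, 5 of 6, summed to 324 to 357 in untreated WT and 628 to 694 in untreated KO cells. Of these 5, 4 were called higher and 1 lower (18% and 17.5% of all genes). With LPS 3 were higher and 2 lower in KO cells (22.1% of all genes each way). Dendritic cell markers, 3 of 5, summed to 10.1 to 16.4 untreated and 79.4 to 274 with LPS; lymphocyte markers, 2 of 7, and the 1 fibroblast marker summed to at most 1.92. All libraries came from a macrophage line, so these values describe RNA of that line. How the markers relate to the Trem values was not tested. In bulk samples, a change in some cells and a change in all cells cannot be told apart.

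Within 250 kb of the receptor genes 4 more genes had RNA values. B430306N03Rik, which lies between Treml2 and Trem2 at chr17:48455487-48465836, had means of 1.25 ± 0.554 untreated and 19.4 ± 1.55 with LPS in WT cells, and 12.4 ± 1.68 and 154 ± 10.6 in KO cells (SD, n = 4). Its log2 difference between KO and WT cells was 2.59 untreated, given with no p-value because the WT reads were few. With LPS it was higher in KO cells by 2.93 (adjusted p = 6.85e-10). The log2 change of this gene with LPS was 3.20 in WT and 3.54 in KO cells. Nfya, a subunit of the CCAAT-binding factor NF-Y, had a log2 change of 0.17 untreated (adjusted p = 0.0910) and was higher by 0.32 with LPS (adjusted p = 0.00354). Oard1 passed neither KO comparison, and Apobec2 was too low to test. Of the 3 neighbours of Tyrobp within 50 kb, Aplp1 fell by 1.38 in untreated KO cells (adjusted p = 1.04e-04), and Hcst, which encodes the sister adaptor DAP10, had a log2 change of 0.20 (adjusted p = 0.512).

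The genes most like each member were found by the root mean square distance between centred log2 values over the 16 RNA libraries, as a description. For Trem1 they were B430306N03Rik (distance 0.61), Pilra (0.74) and Cd69 (0.77). For Trem3 they were Gm973 (0.38), Nedd9 (0.39) and Rhoj (0.44), and for Treml2 Nedd9 (1.099), Gm973 (1.14) and Slpi (1.15). Treml4 was closest to Anpep (0.55), Slc9b2 (0.56) and Arhgap22 (0.56). Trem2 had Creg1 (0.12), Pqlc3 (0.13) and Pon2 (0.13), Treml1 had Maml3 (0.38), C130050O18Rik (0.39) and Fgf11 (0.40), and Tyrobp had Dap3 (0.056), Mrps23 (0.059) and Eif1ad (0.063).

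The chromatin libraries are separate from the RNA libraries whose values chose the genes, and were tested over all sites of each table; the family was proposed with earlier results of the series known. Sites of Trem1, Trem3, Treml4 and Treml2, the first 4 genes of the row, rose in untreated KO cells at 7 of 11 open sites and, on the TMM scale of the ChIP values, at 6 of 10 PU.1 and 3 of 8 JunB sites, with 0 lower. With LPS they were higher at 7 of 10 PU.1 sites, 8 of 8 JunB sites and 4 of 4 MED1 regions, again with 0 lower. In simulated reads with changes of 1 on the log2 scale, the JunB fit recovered 76 of 200 untreated and 194 of 200 with LPS. Counts untreated and with LPS are therefore not compared. Of the sites of Trem2, Treml1 and Tyrobp, 0 of 9 open sites, 3 of 8 PU.1 sites (2 higher, 1 lower) and 0 of 12 JunB sites passed untreated. With LPS 0 of 8 PU.1 sites, 5 of 12 JunB sites (1 higher, 4 lower), 1 of 4 MED1 regions (higher) and 3 of 5 regions of RNA polymerase II (lower) passed. This grouping was made after the RNA values were seen. In untreated cells 7 of 20 open sites were higher in KO (4.04% of all sites) and 0 lower (3.16%), at a median log2 difference of 0.15 beside 0.00 over all sites; 7.20% of all sites were called. For PU.1, 8 of 18 sites were higher (4.90%) and 1 lower (3.08%) in untreated KO cells, where 7.98% of all sites were called, and 7 were higher (4.97%) and 0 lower (3.67%) with LPS, where 8.64% were called. For JunB, 3 of 20 were higher (6.26%) and 0 lower (2.16%) in untreated KO cells, where 8.42% were called, and 9 higher (14.6%) and 4 lower (14.5%) with LPS, where 29.1% were called. For MED1, 5 of 8 were higher (5.16%) and 0 lower (1.92%), with 7.08% called, and for RNA polymerase II 0 of 5 were higher (24.2%) and 3 lower (20.2%), with 44.4% called, both with LPS.

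The scale of the ChIP values matters for the sign. The share of mapped reads inside sites was smaller in KO than in WT libraries, for RNA polymerase II 14.2% to 14.4% against 45% to 46.4%, for MED1 8.81% to 8.92% against 14.6%, and for PU.1 untreated 17.2% to 17.5% against 24.8% to 25.2%. With library totals in place of TMM the median of all sites therefore moved, by -0.55 for PU.1 untreated, -0.42 for PU.1 with LPS, -0.31 for JunB untreated, -0.14 for JunB with LPS, -0.77 for MED1 and -1.88 for RNA polymerase II. All calls then split into 275 higher and 23772 lower for PU.1 untreated (2548 and 1604 by TMM), 1033 and 13409 for PU.1 with LPS (2583 and 1911), 1932 and 4646 for JunB untreated (3681 and 1268), 5518 and 13564 for JunB with LPS (8604 and 8500), 159 and 17690 for MED1 (1344 and 500) and 643 and 20862 for RNA polymerase II (5591 and 4661). On that scale the family's sites had 0 higher and 6 lower for PU.1 untreated, 5 and 3 for PU.1 with LPS, 1 and 1 for JunB untreated, 8 and 7 for JunB with LPS, 4 and 3 for MED1, and 0 and 5 for RNA polymerase II. Values below are relative to the TMM scale unless stated.

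**Figure D3:**
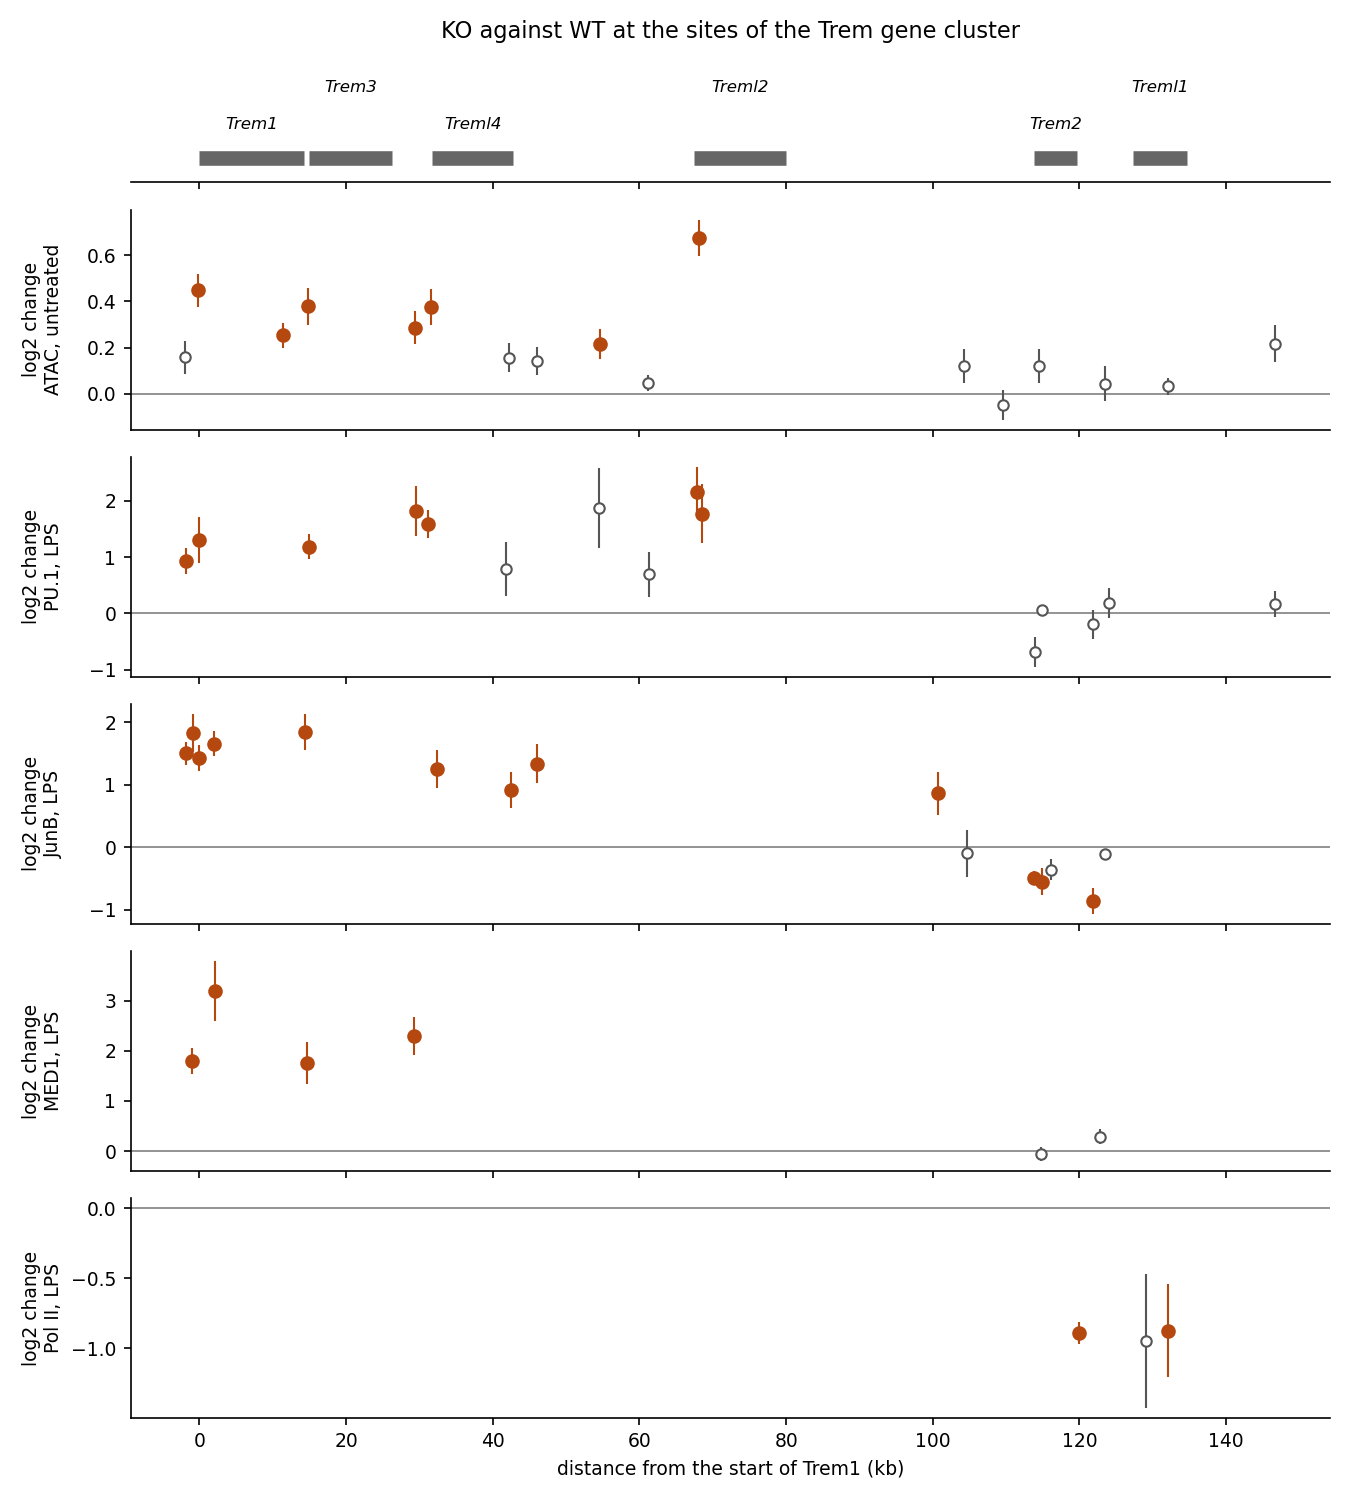
Difference between KO and WT (control for ATAC) at each site of the 6 receptor genes. The x axis is the distance in kb from the start of Trem1, with gene bodies as bars on top; the y axis is the log2 change with its standard error, and filled points passed an adjusted p of 0.05. PU.1, JunB, MED1 and RNA polymerase II are from LPS-treated cells. The filled points at Trem1, Trem3, Treml4 and Treml2 lie above 0, up to 0.68 for open chromatin in Treml2, and those at Trem2 and Treml1 lie below 0 except the JunB site of Trem2 at -13155.

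Open chromatin at the promoter of Trem1 (site at -136) had deposited log2 values of 3.87, 3.90 and 3.94 in control and 4.39, 4.28 and 4.38 in KO libraries. All KO values lay above all control values, and the site rose by 0.45 (SE 0.07, adjusted p = 2.70e-07). PU.1 at the promoter (-66) had 11.8 and 12.9 normalised reads in untreated WT and 25.3 and 19.4 in untreated KO cells, and 4.85 and 21.2 against 23.6 and 33.4 with LPS. It passed with LPS at 1.31 (SE 0.40, adjusted p = 0.0219) but not untreated (0.86, adjusted p = 0.0664); with library totals the LPS difference was 0.88 (adjusted p = 0.0859), and it did not pass without WT LPS replicate 1 (0.40), WT LPS replicate 2 (2.39) or KO LPS replicate 2 (1.06). The PU.1 site at -1847 had 37.4 and 39.3 against 56.9 and 60.6 untreated, and 27.9 and 37.1 against 62.4 and 62.6 with LPS, and was higher in KO cells by 0.62 (adjusted p = 0.0147) and 0.93 (adjusted p = 0.00191). The untreated call was lost without any 1 of the 4 untreated libraries (0.57 to 0.67) and the LPS call without WT LPS replicate 1 (0.75); with library totals the values were 0.058 (adjusted p = 0.801) and 0.52 (adjusted p = 0.0720).

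JunB was higher in KO cells with LPS at each of the 4 JunB sites of Trem1, on both scales and without any single library. At the intronic site at 2032, whose AP-1 match is shown above, LPS-treated WT libraries had 11.7 and 12.0 normalised reads and KO libraries 35.6 and 39.2. The difference was 1.66 on the log2 scale (SE 0.20, adjusted p = 1.15e-11). The promoter site at -54 had 11.3 and 12.4 in WT, against 33.3 and 31 in KO cells with LPS (1.42, SE 0.21, adjusted p = 7.70e-09). The same site before LPS had 12.2 and 11.1 in WT, against 44.2 and 38.1 in KO cells (log2 difference 1.79, SE 0.39, adjusted p = 9.88e-04). The sites at -1815 and -871 were higher with LPS by 1.503 (adjusted p = 3.17e-11) and 1.83 (adjusted p = 4.32e-07).

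MED1, which reports Mediator at active enhancers, followed at both of its Trem1 regions. The wide region at -1019 had 16.4 and 16.2 normalised reads in WT and 62.8 and 53.3 in KO cells with LPS, a log2 difference of 1.80 (SE 0.26, adjusted p = 2.79e-07) that held at 1.03 with library totals. The intronic region at 2080, over the JunB site at 2032, had 1.56 and 1.55 in WT, against 16 and 18.5 in KO cells, from 4 against 31 reads. Its difference of 3.19 (SE 0.59, adjusted p = 6.85e-05) did not pass without WT LPS replicate 1 (3.20) or WT LPS replicate 2 (3.19). No region of RNA polymerase II in the table is assigned to Trem1, Trem3, Treml2 or Treml4.

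At Trem3, the promoter site of open chromatin (-187) had log2 values of 5.11, 4.95 and 5.07 in control and 5.51, 5.49 and 5.28 in KO libraries, and rose by 0.38 (SE 0.08, adjusted p = 3.42e-04). The site at -3598, within an intron of Trem1, rose by 0.25 (adjusted p = 3.36e-04). PU.1 at the promoter (-34) had 62.9 and 65.1 normalised reads in untreated WT and 89.5 and 103 in untreated KO cells, and 38.8 and 28.6 against 74.9 and 76.5 with LPS. KO libraries were higher in both conditions, by 0.58 (adjusted p = 0.00104) and 1.19 (adjusted p = 7.99e-06); with library totals these were 0.024 (adjusted p = 0.892) and 0.78 (adjusted p = 0.00297). Without KO untreated replicate 2 the untreated value was 0.49 and did not pass.

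JunB at -605 of Trem3, the only JunB site assigned to it, had 5.83 and 5.42 normalised reads in WT and 19 and 21.95 in KO cells with LPS. The KO values were higher by 1.84 (SE 0.29, adjusted p = 7.87e-08), and by 1.69 with library totals. Before LPS the site had 2.44 and 5.56 against 10.0 and 17.8, from 6 and 12 reads, and did not pass (1.71, adjusted p = 0.114). MED1 at -295 had 5.47 and 6.96 in WT, against 24 and 19.6 in KO cells (1.76, SE 0.42, adjusted p = 0.00359; 0.99 with library totals), and did not pass without WT LPS replicate 1 (1.59) or 2 (1.92).

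Treml4 had 4 open sites, of which the promoter site at -214 (4.30, 4.45 and 4.45 in control, 4.63, 4.81 and 4.89 in KO) rose by 0.38 (SE 0.08, adjusted p = 1.53e-04). The upstream site at -2332 rose by 0.29 (adjusted p = 0.00289), and did not pass without control replicate 2 (0.24) or KO replicate 2 (0.24). The PU.1 site at -564, with 2 core matches, kept its calls in both conditions without each library in turn. It had 25.6 and 31 normalised reads in untreated WT and 51.6 and 57.0 in untreated KO cells, and 20.6 and 24.4 against 70.7 and 66.7 with LPS. The differences were 0.95 (SE 0.20, adjusted p = 2.29e-04) and 1.59 (SE 0.25, adjusted p = 1.84e-07); with library totals they were 0.39 (adjusted p = 0.0960) and 1.17 (adjusted p = 8.67e-05).

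Upstream of Treml4, PU.1 at -2287 had 23.6 and 21.9 against 36.9 and 43.7 normalised reads untreated, and 8.49 and 8.47 against 31.9 and 30.6 with LPS, and was higher in KO cells by 0.80 and 1.82 (adjusted p = 0.0123 and 0.00177). The first call was lost without WT replicate 1 (0.85), WT replicate 2 (0.76) or KO replicate 2 (0.70), and the second without WT LPS replicate 2 (1.81). MED1 over the same stretch (-2568) had 7.81 and 6.18 in WT, against 32 and 39.1 in KO cells, a difference of 2.30 (SE 0.38, adjusted p = 7.97e-06) that held at 1.53 with library totals. JunB was higher in KO cells with LPS at all 3 of its Treml4 sites, from 0.91 at 10750 to 1.34 at 14256. At 14256 the libraries had 4.80 and 5.80 in WT, against 14.3 and 12.9 in KO cells (adjusted p = 3.52e-04). The site at 593 did not pass without KO LPS replicate 1 (0.94), nor that at 10750 without WT LPS replicate 1 (0.90), WT LPS replicate 2 (0.92) or KO LPS replicate 2 (0.83).

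Treml2 had the greatest difference in open chromatin among the 20 sites. Its site at 644 in the first intron had 4.45, 4.40 and 4.63 in control and 5.20, 5.08 and 5.23 in KO libraries, a rise of 0.68 (SE 0.08, adjusted p = 4.75e-13). The site at -12861 rose by 0.21 (adjusted p = 0.0254), a call lost without control replicate 1 (0.20) or 3 (0.19) or KO replicate 2 (0.23) or 3 (0.17). PU.1 at 354 had 24.2 and 20.4 normalised reads in untreated WT and 39.0 and 43.7 in untreated KO cells, and 15.8 and 4.24 against 34.7 and 38.9 with LPS. It was higher in KO cells by 0.87 (adjusted p = 0.00532) and 2.17 (SE 0.44, adjusted p = 8.79e-05), with the untreated call lost without WT replicate 2 (0.76) or KO replicate 2 (0.80) and the LPS call without WT LPS replicate 2 (1.19). PU.1 at 1038, with its core match shown above, had 6.55 and 15.1 against 19 and 21.8 untreated, and 7.27 and 5.30 against 20.8 and 23.6 with LPS (1.06 and 1.77, adjusted p = 0.0322 and 0.0170), each call lost without any 1 of 3 libraries. These sites held 11 to 73 reads per group, and no JunB or MED1 site is assigned to Treml2.

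**Figure D4:**
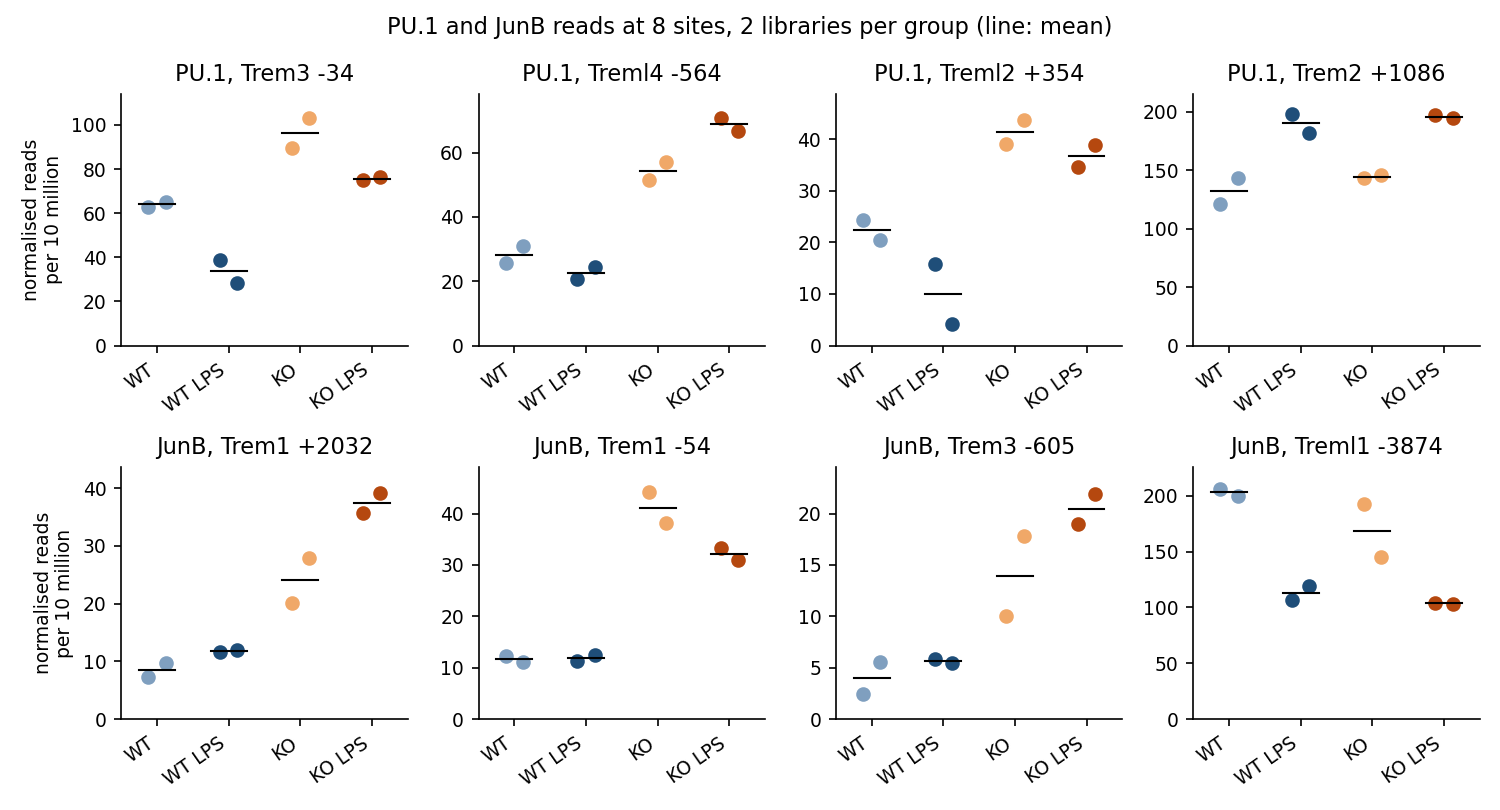
Reads at 8 sites of PU.1 (top) and JunB (bottom). The y axis is normalised reads, from 0; points are the 2 libraries of a group and lines their mean, and each panel is titled with the gene and the distance in bases from its start. In the first 3 panels of each row both KO libraries with LPS lie above both WT libraries with LPS, for example 35.6 and 39.2 against 11.7 and 12.0 for JunB in the Trem1 intron, while at Trem2 and Treml1 they lie close together.

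The widest open site of the receptor genes, 2049 bases at 629 of Trem2, had the highest log2 value of the row, which is not per base, with 7.33, 7.36 and 7.28 in control and 7.49, 7.45 and 7.39 in KO libraries (0.12, adjusted p = 0.353). Its main PU.1 site, at 1086 in an intron, had 121 and 143 normalised reads in untreated WT and 143 and 146 in untreated KO cells, and 198 and 182 against 197 and 195 with LPS. Genotypes did not differ by the test in either condition (0.15 and 0.05, adjusted p = 0.368 and 0.788), and with library totals both became lower in KO cells (-0.41 and -0.36). LPS raised this site by 0.53 in WT (adjusted p = 3.93e-08) and 0.44 in KO cells (adjusted p = 5.08e-04), whereas with library totals the values were -0.18 and -0.13. PU.1 at 45 rose in untreated KO cells by 0.79 (29.5 and 19.7 against 43.2 and 41.2, adjusted p = 0.0113; 0.23 with library totals), a call lost without WT replicate 2 (0.52), KO replicate 1 (0.75) or KO replicate 2 (0.82). With LPS the order was the opposite, with 46.1 and 42.4 in WT, against 27.7 and 26.4 in KO cells (-0.68, adjusted p = 0.0830; -1.10 with library totals, adjusted p = 4.88e-04).

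JunB at the start of Trem2 (site at 1) was lower in KO cells with LPS, with 65.9 and 61.5 normalised reads in WT and 39.4 and 50.6 in KO cells. The difference was -0.49 (SE 0.11, adjusted p = 2.41e-04), and -0.64 with library totals. The intronic site at 1083 was lower by -0.55 (adjusted p = 0.0437), a call lost in 4 of 8 fits that each left out 1 library, down to -0.28 without KO LPS replicate 2. The distal site at -13155 was higher by 0.86 (adjusted p = 0.0492), a call lost with library totals (0.72, adjusted p = 0.105) and in 7 of 8 fits that each left out 1 library. MED1 at 934 had 105 and 118 against 94.8 and 120 (-0.06, adjusted p = 0.862), and -0.83 with library totals. The wide region of RNA polymerase II over Trem2 (chr17:48483670-48499933, reaching into the start of Treml1) had 654 and 688 in WT, against 363 and 360 in KO cells with LPS, a fall of -0.89 (SE 0.08, adjusted p = 4.60e-13). With library totals, which moved the median of all sites by -1.88, the value was -2.78.

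Treml1, near the other end of the row, held the JunB site of the family with the most reads, at -3874. It had 206 and 200 normalised reads in untreated WT, 193 and 145 in untreated KO, 107 and 119 in WT with LPS and 104 and 103 in KO cells with LPS. The genotypes did not differ by the test with LPS (-0.11, adjusted p = 0.178), but passed without WT LPS replicate 1 (-0.19) and with library totals (-0.26, adjusted p = 0.00195). LPS lowered the share of JunB reads there by -0.86 in WT and -0.72 in KO cells on the TMM scale (adjusted p = 1.76e-18 and 4.48e-07), whereas with library totals it rose by 1.18 and 1.46. JunB at -5517 was lower in KO cells with LPS (28.1 and 24.4 against 13.8 and 14.9, -0.86, adjusted p = 4.83e-04). PU.1 at 19333 was lower in untreated KO cells (44.6 and 57.5 against 31.6 and 26.7, -0.76, adjusted p = 0.0115), a call lost without WT replicate 2 (-0.59), KO replicate 1 (-0.89) or KO replicate 2 (-0.65), and none of its 3 open sites passed (0.03 to 0.22).

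MED1 at -4532 of Treml1 had 79.6 and 75.0 in WT, against 91.4 and 96.8 in KO cells (0.29, adjusted p = 0.272), and -0.48 with library totals. RNA polymerase II in the gene was lower in KO cells at 4737, with 36.5 and 29.5 against 21.2 and 13.8 (-0.87, adjusted p = 0.0294; not passing without WT LPS replicate 1 at -0.73 or KO LPS replicate 2 at -0.57). At 1769, from 54 and 7 reads, the difference was -0.95 (adjusted p = 0.104).

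Tyrobp, the adaptor gene, had a site of 1589 bases over its promoter, with 8.07, 7.88 and 7.99 in control and 8.11, 8.01 and 8.03 in KO libraries at -463 (0.07, adjusted p = 0.604). PU.1 at -18 had 64.9 and 74.1 against 65.3 and 52.1 normalised reads untreated, and 55.8 and 44.5 against 62.4 and 40.3 with LPS; the groups overlapped in both conditions (-0.22 and 0.03, adjusted p = 0.421 and 0.959). With library totals the untreated value was -0.78 (adjusted p = 1.28e-05), with KO below WT libraries, and that with LPS -0.39 (adjusted p = 0.158). The Tyrobp site with the most PU.1 reads, at -19172, was higher in untreated KO cells by 0.27 (145 and 151 against 175 and 183, adjusted p = 0.0209) but had -0.28 with library totals, and the call was lost without WT replicate 1 (0.24), KO replicate 1 (0.31) or KO replicate 2 (0.25). JunB at -20406 was lower in KO cells with LPS by -0.55 (26.4 and 20.1 against 14.3 and 17.2, adjusted p = 0.0324), a call lost in 5 of 8 fits that each left out 1 library.

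MED1 over the Tyrobp promoter (150) had 69.5 and 60.3 in WT, against 110 and 91.3 in KO cells with LPS, higher by 0.63 (SE 0.16, adjusted p = 0.00515), but -0.14 with library totals; it did not pass without WT LPS replicate 2 (0.52) or KO LPS replicate 1 (0.50). RNA polymerase II at -19749 had 173 and 178 against 115 and 70.9 (-0.95, adjusted p = 4.50e-06). JunB at the promoter (-944) had 26.8 and 22.8 against 24.7 and 25.1 with LPS (0.01, adjusted p = 0.986), or -0.14 with library totals.

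Not all calls rest equally on both libraries of a group. Without each library in turn, 8 of the 13 JunB calls between genotypes with LPS held in every fit, also with library totals: the 4 of Trem1 and those of Trem3 at -605, Treml4 at 14256, Trem2 at 1 and Treml1 at -5517. For PU.1 with LPS 2 of 7 calls held, Trem3 at -34 and Treml4 at -564, and for PU.1 untreated 1 of 9, Treml4 at -564. The count of PU.1 calls untreated fell from 9 to 5 without WT replicate 1, to 4 without WT replicate 2 or KO replicate 1, and to 1 without KO replicate 2; with LPS it fell from 7 to 4 and 3 without WT replicate 1 and 2. For MED1, the regions of Trem1 at -1019 and Treml4 at -2568 held of 5 calls, with 3 and 2 left without WT replicate 1 and 2. For JunB untreated the Trem1 site at -54 held of 3 calls, and 1 call was left without WT replicate 1 or 2. For RNA polymerase II 2 of 3 held, Trem2 at 6075 and Tyrobp at -19749. For open chromatin 5 of 7 calls held, at Trem1 (-136), Trem3 (-187 and -3598), Treml4 (-214) and Treml2 (644).

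The effect of LPS on occupancy was read within each genotype. On the TMM scale PU.1 rose at 3 and fell at 4 of the 18 sites in WT cells (11.4% and 7.24% of all sites, 18.7% called), and rose at 2 and fell at 0 in KO cells (11.0% and 7.89%, 18.9% called). In WT cells the falls were at Trem3 -34 (-0.94, adjusted p = 7.56e-05), Treml2 354 (-1.45, adjusted p = 0.00795), Treml4 -2287 (-1.36, adjusted p = 0.0122) and Tyrobp -18 (-0.47, adjusted p = 0.0303). The rises were at Trem2 45 (0.85) and 1086 and at Treml1 -3361 (0.80), the last also rising in KO cells (1.14, adjusted p = 0.00501). Of the 7 WT calls 1, Trem2 1086, held without each library in turn, and 2 were left without WT LPS replicate 2. With library totals 13 sites fell and 0 rose in WT cells and 9 fell in KO cells, with all sites moving by -0.70 and -0.57 and split into 694 higher and 30920 lower in WT (5951 and 3766 by TMM).

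For JunB the direction of the LPS effect turned with the scaling. By TMM 3 sites rose and 5 fell in WT cells (17.3% and 21.5% of all sites, 38.7% called) and 0 rose and 2 fell in KO cells (14.8% and 19.9%, 34.7% called), while with library totals 19 and 18 of the 20 sites rose and 0 fell, the median of all sites moving by 2.02 and 2.22. All calls were then 55836 higher and 17 lower in WT, against 10162 and 12626 by TMM. The share of JunB reads inside sites was 6.91% to 7.51% in untreated and 28.8% to 29.2% in LPS-treated WT libraries. The site that rose on both scales and without each library was Trem2 2259, in an exon, with 4.87 and 8.34 before and 29.2 and 29.8 normalised reads after LPS in WT cells (2.10, SE 0.46, adjusted p = 9.09e-05; 4.15 with library totals). In KO cells the same site had 10.0 and 17.8 before and 25.7 and 20.8 after LPS (0.72, adjusted p = 0.182).

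By position, of the 18 PU.1 sites of the family 17 (94.4%) shared at least 1 base with an open site, 7 (38.9%) with a JunB site and 11 (61.1%) with a MED1 region. Of the 20 JunB sites 13 (65.0%) overlapped an open site, 7 (35%) a PU.1 site and 13 (65.0%) a MED1 region. With centres required to lie within 200 bases, 7 PU.1 and JunB pairs remained.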

How the data were processed

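The members and gene lists were chosen with earlier results of these data known. RNA and ChIP values were deposited by the authors as reads per 10000000 mapped reads (with decimal commas); ATAC values were deposited on a log2 scale whose transformation is not given in the sources used here. Per the submitters' processing notes, HISAT2, Bowtie2, BWA, HOMER, MACS2, DESeq2 and edgeR were used, on mm9; versions are not given in the sources used here. ChIP chromatin was crosslinked with DSG and formaldehyde, and RNA libraries were polyA-selected, per the labels' protocols. Of 247 samples, 46 had values here; 8 rescaled columns of ChIP samples were not used, nor were the authors' averages and comparisons.

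From the deposited values whole reads were recovered: 100% of values of up to 200 reads were whole within 0.05 read in every library. Libraries were scaled by TMM (30% and 5% trimmed). Features needed 10 reads at the median depth in the libraries of a group and 15 in all. RNA was tested as log2(value + 1) with limma 3.58.1 (R 4.3.3; trend, robust), all groups in 1 fit, ChIP reads with limma's precision weights (voom), ATAC with limma on the deposited values; all two-sided, with Benjamini-Hochberg adjustment over all tested features and a threshold of 0.05. Counting intervals are exact, at 95%, and cover counting error only. The fits were tested on simulated data. Named sites were the promoter site nearest the start (within 1 kb), the site with the highest mean per factor and gene, and called sites. The planned count tests were not run. The LPS response of a member was tested only where each group had a library at the read minimum. Mapped reads of ATAC libraries were 4038814 to 7108592. Alternatives are in the closing section.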

Additional observations from a re-analysis of the deposited data

Results flagged for a closer look

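In 9 of 32 groups of 4 RNA libraries (7 members and Gps2, 4 groups each), 1 library lay further from the others than Dixon's test allows at 95%. The nominal rate of 1 in 20 groups cannot be set against this count. Groups with reads in 1 library alone are flagged by construction, and the same library can be flagged for several genes. In WT LPS, replicate 4 was highest for Trem2 (975 normalised reads, others 568 to 609), Trem3 (14.1, others 5.94 to 7.12) and Gps2 (496, others 420 to 424). In untreated WT cells, replicate 1 alone had reads of Trem1 (0.492, others 0) and Treml2 (0.985, others 0). In KO LPS cells, replicate 1 was lowest for Treml2 (199, others 224 to 228) and highest for Tyrobp (3739, others 3620 to 3638), and replicate 4 was highest for Treml4 (12.4, others 8.27 to 8.82). In untreated KO cells, replicate 1 was lowest for Treml4 (14.6, others 15.3 to 15.4).

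The log2 change of Trem3 with LPS was 0.43 in WT and -0.24 in KO cells, opposite in direction. The difference between both changes was not tested, and neither change passed its own test.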

How the results depend on the processing

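Counts of all called features moved beyond 1.5 times under some settings. For RNA between genotypes, library weights gave 7345 untreated calls and a fit of only the groups compared gave 7213 (4180 in the reported fit); with LPS that fit gave 3126 (5203). Without a trend, ATAC gave 2539 calls (5271). Library totals gave, against the reported counts, 24047 (4152) and 14442 (4494) for PU.1 between genotypes untreated and with LPS, 31614 (9717) and 22213 (9837) for LPS in WT and KO, 55853 (22788) and 54096 (20417) for JunB with LPS in WT and KO, 17849 (1844) for MED1 and 21505 (10252) for RNA polymerase II. Members called with library totals were 13 and 9 for PU.1 with LPS in WT and KO (7 and 2), 19 and 18 for JunB (8 and 2) and 5 for RNA polymerase II (3); requiring 1.5-fold left 1 PU.1 site for LPS in KO (2).

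Signs turned with library totals at Tyrobp -19172 (PU.1 untreated, -0.28), with LPS at Trem2 1086 (-0.36), Treml1 19333 (-0.25) and Tyrobp -18 (-0.39) for PU.1, Tyrobp -19281 (-0.031) and -944 (-0.14) for JunB, and Treml1 -4532 (-0.48) and Tyrobp 150 (-0.14) for MED1. For LPS itself they turned at Trem2 1086 in WT (-0.18) and KO (-0.13) for PU.1, and for JunB in WT at Trem1 -1815 (1.27), Treml1 -3874 (1.18), Treml4 10750 (1.12), Tyrobp -8765 (0.70) and -5025 (0.84) and in KO at Treml1 -3874 (1.46) and Tyrobp -5025 (0.49). The cause was not tested.

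Leaving out 1 library at a time, all calls ranged over 3514 to 6993 (RNA untreated), 3189 to 4087 (ATAC), 1700 to 4157, 1678 to 4667, 4668 to 9750 and 5042 to 9917 (PU.1: genotypes untreated, with LPS, LPS in WT, in KO), 1942 to 5742, 10408 to 17441 and 13616 to 24593 (JunB: untreated, with LPS, LPS in WT) and 971 to 1120 (MED1). Members called ranged over 1 to 9, 3 to 8, 2 to 7 and 1 to 2 for PU.1 in that order, 1 to 3 and 3 to 9 for JunB untreated and LPS in WT, 1 to 3 for LPS in KO, and 2 to 5 for MED1. Signs turned in the ranges of Treml1 RNA between genotypes with LPS (-0.66 to 0.00041), ATAC Treml1 -3854 (-0.032 to 0.15), PU.1 with LPS at Trem2 1086 (-0.015 to 0.10), Tyrobp -19172 (-0.22 to 0.20) and -18 (-0.28 to 0.33), JunB at Tyrobp -19281 (-0.052 to 0.32) and -944 (-0.099 to 0.13), and MED1 at Trem2 934 (-0.23 to 0.11).

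Replicate numbers did not pair the libraries: deviations of same-numbered libraries correlated at -0.37 to 0.21 (RNA, 1 of 24 pairs over 0.1), and every ATAC and ChIP pair lay between -0.0124 and 0.0096. With the replicate block the PU.1 difference with LPS at Tyrobp -19172 became 0.0052 (-0.011), and counts of members called moved by less than 1.5 times. The planned count tests with edgeR and DESeq2 were not run.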
